A study of Mus musculus with 6 samples.

Results

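The 81 genes described here encode the proteins of the cytosolic ribosome, or are annotated copies of such genes. They were chosen by name: a row of the count matrix was taken if its identifier maps to a mouse symbol of the Rpl or Rps series, or to Rpsa, Rplp1 or Rplp2, with Rps2, Rps26 and symbols ending in -ps left out, and if it held at least 60 read pairs summed over the libraries. Of 57010 genes in the matrix, 86 had such a symbol and 81 reached the minimum. Symbols were found for 52029 of the 57010 identifiers. The 81 comprise 48 genes of the large subunit and 33 of the small subunit, and 4 of them (Rps3a2, Rps3a3, Rpl6l and Rps4l) are annotated as pseudogenes. Just outside the minimum lay Rpl32l with 40 read pairs, Rpl24 with 38 and Rpl39l with 18, while Rpl10l and Rps12l1 had 0. Just inside it lay Rps10 with 76 and Rpl6l with 216. The rule used names and summed counts only, not the comparison between groups.

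Each ribosome joins a small subunit, which reads the mRNA, to a large subunit, which forms the peptide bond, and each subunit is a core of ribosomal RNA clothed in proteins that are present in single copy, except for those of the acidic stalk. The mRNAs of ribosomal proteins begin with a run of pyrimidines, the 5′ terminal oligopyrimidine tract, through which mTOR signalling controls their translation as a group. In adult skeletal muscle these genes are also known for muscle-restricted paralogs such as Rpl3l, and for leaving many processed copies elsewhere in the genome.

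The RNA came from the gastrocnemius, a calf muscle of mostly fast fibres, of 6 untreated mice aged 3 months. The 3 mutants were homozygous for the Dysfprmd allele in the B6.A-Dysfprmd/GeneJ line, in which a retrotransposon insertion disrupts the gene of dysferlin, a membrane repair protein of muscle. The 3 controls were C57BL/6 mice labelled wild type, and each animal was an independent biological replicate. All 3 controls and mutant 3 were male, while mutants 1 and 2 were female. The groups differ in strain line as well as in the Dysf genotype, so the effects of allele and line cannot be told apart.

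Pyrimidine runs near the gene starts can be read from the sequence. Promoter sequences of RefSeq (build GRCm38.p6, 250 bases before to 50 after an annotated start) were found for 57 of the 81 genes. The lines below show 30 bases around the longest run within 20 bases before to 50 bases after the start. The run is in capitals and is shown whole where it reaches past that stretch. The lines cover the 3 genes with the smallest p-values in the comparison, Rpl11, Rps6 and the muscle paralog Rpl3l. Rps18 is shown as the gene in which every mutant lay above every control.
Rpl35a, chr16:33056467-33056496, + strand: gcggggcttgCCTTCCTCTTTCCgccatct
Rps25, chr9:44407682-44407711, + strand: ggccaccgggCTTCCTTTTTTTCCgacatc
Rpl5, chr5:107900498-107900527, + strand: cctacagccaCTCTTTCTCacgtcgcttgc
Rps18, chr17:33955648-33955677, - strand: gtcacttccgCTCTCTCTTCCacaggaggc
Rpl11, chr4:136053361-136053390, - strand: gggccggaagTCTCCCTCTCTCTTCCTgtt
Rps6, chr4:86857349-86857378, - strand: ggaagtcgggCCTCTTTTTCgtgacgcctc
Rpl3l, chr17:24727846-24727875, + strand: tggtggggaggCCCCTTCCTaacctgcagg
The run of Rpl11 is 17 bases long, that of Rps25 14, of Rpl35a 13, of Rps18 11, of Rps6 10 and those of Rpl5 and Rpl3l 9. Rps18 and Rps6 carry theirs across the annotated start, from 2 bases and 1 base before it. The runs of Rps25 and Rpl5 lie before that start, beginning 22 and 20 bases upstream. Those of Rpl11, Rpl35a and Rpl3l begin at bases 14, 25 and 32 of the annotated transcript. Which start is used in muscle was not tested.

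A run of at least 8 pyrimidines on the sense strand lay in that stretch of 46 of the 57 genes (80.7%), against 28.5% of 27025 genes with a promoter sequence. The ETS-type motif CCGGAAG, searched on both strands of the whole 300 bases, was found in 23 of the 57 (40.4%), against 9.93% of genes. The YY1-type core AAGATGGC was found on either strand in 6 (10.5%), against 3.19%. Both motifs hold pyrimidines on their antisense strand and can overlap a run there. These are matches of letters in a window and were not tied to binding or to levels.

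The libraries held 35042245 to 43733641 gene-assigned read pairs. Dysf was at 72.3, 99.8 and 145 CPM (read pairs of a gene per 1000000 of the library, scaled by edgeR's TMM factors) in controls 1, 2 and 3 and at 15.8, 14.7 and 20.3 CPM in the mutants, 2.64 ± 0.28 (SE) lower on the log2 scale with an adjusted p of 0.0249 in edgeR's quasi-likelihood test, and all 16 muscle fibre markers were detected. Libraries differed in ways the groups do not explain. Control 2 stood apart in markers of satellite cells and regenerating fibres, whose 11 genes summed to 271 CPM there against 72.1 to 79.8 CPM in the other controls and 68.8 to 111 CPM in the mutants. Control 3 and mutant 3 were high in markers of fibroblasts and their progenitors, at 6587 and 7969 CPM against 1861 to 2405 CPM in the other 4 libraries. Control 1 had the highest share of mitochondrial transcripts, 9.75% against 4.28% to 6.96% elsewhere.

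No ribosomal protein gene was called between the mutants and the controls by the test across all genes. On simulated data, with the changed genes drawn at random from all genes tested, this test recovered 15 of 71 genes changed 2-fold (21.1%). Smaller changes can therefore go uncalled. Recovery was not taken for the ribosomal protein genes alone, so the 21.1% is not a rate for them. edgeR's quasi-likelihood test with Benjamini-Hochberg adjustment called 31 of 15589 genes at an adjusted p below 0.05 (0.199%) and 0 of the 81, all of which passed the filter on low counts. The smallest adjusted p among the 81 was 0.676, for Rpl35a. At an unadjusted p below 0.05, 3 of the 81 (3.7%) stood against 6.94% of all genes. DESeq2 called 184 genes (1.18%) and again 0 of the 81, with 4 of the 81 (4.94%) at an unadjusted p below 0.05 against 7.49% of all genes. In the authors' deposited table, 81 of the genes were listed and 0 passed an adjusted p of 0.05, the smallest being 0.591.

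The fitted differences were small and leaned one way. Of the 81 genes, 72 (88.9%) had a fitted log2 fold change below 0, against 50.2% of all genes tested. The median was -0.15, with a middle range of -0.23 to -0.08, against -0.00154 over all genes. The lean was alike in both subunits: 26 of 30 protein-coding genes of the small subunit lay below 0, with a median of -0.15, and 43 of 47 of the large subunit, with a median of -0.14. No test was made of the group as a whole. In whole muscle, fewer cells of a type and less RNA per cell cannot be told apart.

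The size of the lean depended on single animals. Without control 2, the library with the high regeneration markers, the median was -0.08 and 66 of the 81 (81.5%) lay below 0, against 49.2% of all genes; without control 3 the median was -0.23. Among males alone, 3 controls against mutant 3, the median was -0.17 and 67 genes (82.7%) lay below 0, against 51.9% of all genes.

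**Figure D1:**
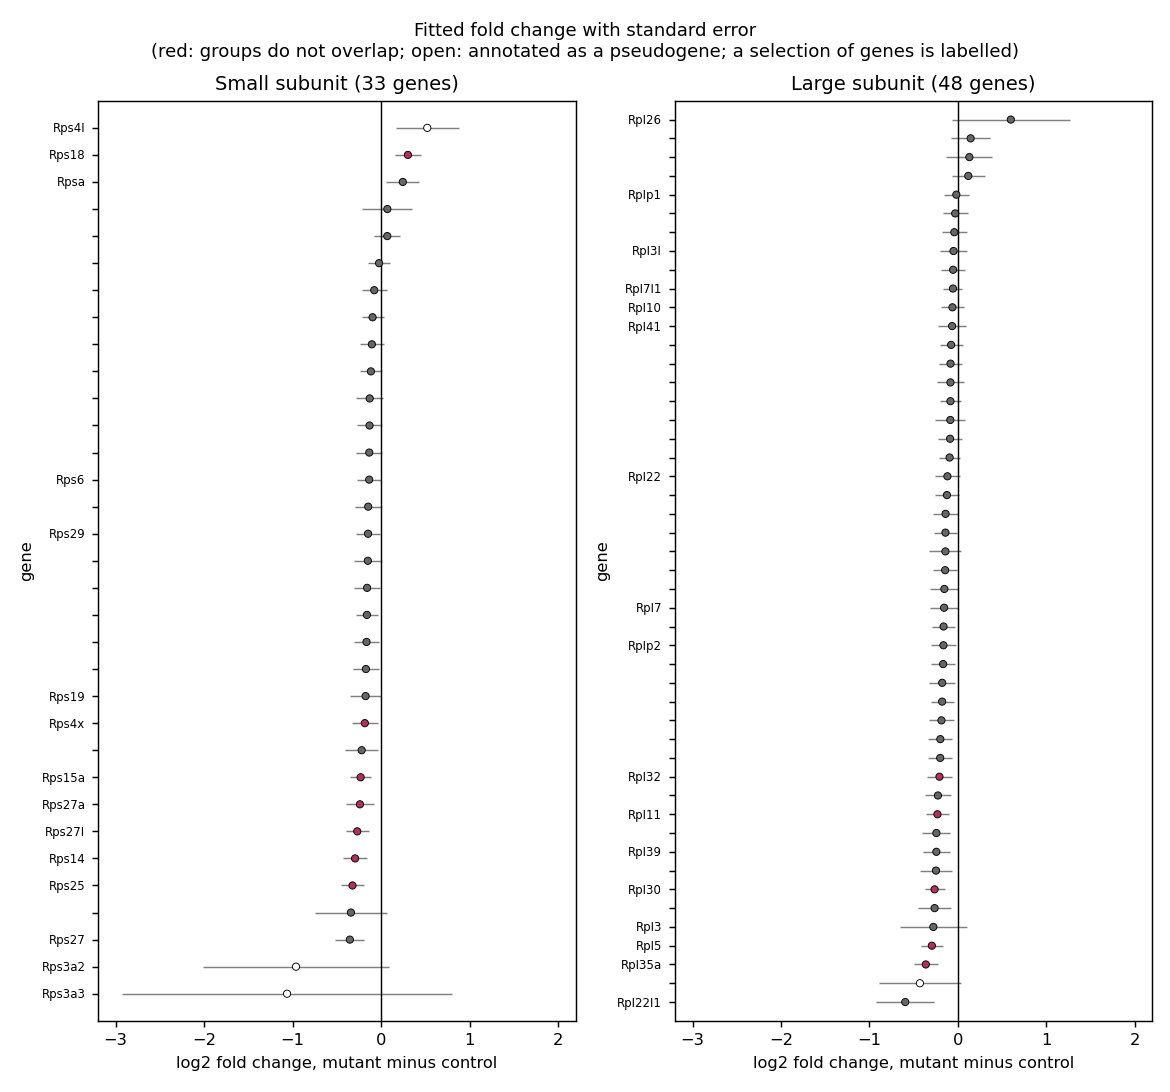
Fitted log2 fold change (mutant minus control, x axis) of each of the 33 small-subunit and 48 large-subunit genes, with its standard error as a bar; a selection of genes is labelled, red points are genes whose 3 mutant and 3 control libraries do not overlap, and open points are annotated pseudogenes. Most points lie slightly left of 0, 72 of 81, and the widest bars belong to Rps3a3, Rps3a2 and Rpl26.

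Within a library, most of the genes deviated the same way. For the 78 genes that varied by no more than 4-fold between libraries, each library's log2 level was set against the gene's own mean over all 6. The median deviation was 0.11 in control 1, 0.19 in control 2 and -0.07 in control 3. In mutants 1, 2 and 3 it was 0.03, -0.14 and -0.09. Control 3 therefore sat among the mutants, and mutant 1 between the groups. Control 2 was the highest library for 51 of the 78 genes and mutant 2 the lowest for 38. In control 2, 67 of the 78 lay above their own mean, in control 1 64 and in mutant 1 52, but only 19 in control 3, 18 in mutant 3 and 9 in mutant 2. Markers of regenerating fibres are high in control 2 as well, and fibroblast markers in control 3, the control that lay among the mutants. Their part in the ribosomal protein levels of these libraries was not tested.

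**Figure D2:**
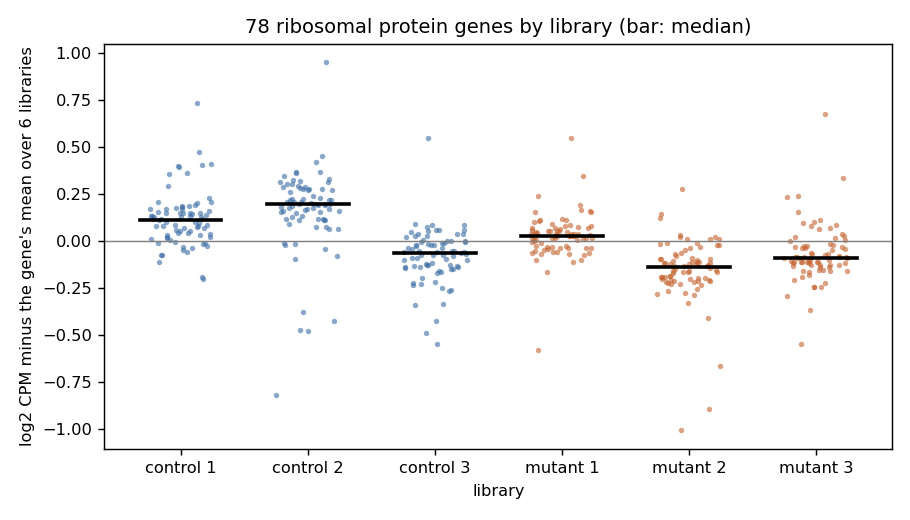
Deviation of each of 78 ribosomal protein genes (points) from its own mean log2 CPM over the 6 libraries (y axis), by library, with the median as a bar. Controls 1 and 2 sit above 0, at medians of 0.11 and 0.19, while control 3, at -0.07, lies at the level of mutants 2 and 3.

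As a share of all gene-assigned read pairs, the 81 genes took 1.47%, 1.58% and 1.26% in controls 1, 2 and 3 and 1.46%, 1.34% and 1.29% in mutants 1, 2 and 3. The groups overlap, with means of 1.44% ± 0.159 (SD, n = 3) and 1.36% ± 0.0874 (SD, n = 3), and the log2 ratio of the means was -0.08. Without control 2 it was -0.0047, and without control 3 it was -0.16. Most genes varied little between libraries: the SD of a gene's log2 CPM over all 6 had a median of 0.16, and 59 of the 81 genes varied by less than 1.5-fold between the lowest and the highest library. The steadiest gene was Rpl7l1, with an SD of 0.052.

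Groups that do not overlap were found for 12 genes. In 11 (13.6%) every mutant lay below every control, against 6.09% of all genes, and in 1, Rps18, every mutant lay above, against 5.97%. The 11 were Rpl35a, Rps25, Rpl5, Rpl30, Rps14, Rps27l, Rps15a, Rpl11, Rps27a, Rpl32 and Rps4x. Without control 2, where overlap is easier to avoid, the counts were 14 below (17.3% against 12.2% of all genes) and 2 above (2.47% against 11.7%).

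Rpl35a, a protein of the large subunit whose loss causes Diamond-Blackfan anaemia in people, was at 106.8, 117.7 and 95.4 CPM in controls and 91.4, 78.5 and 79.0 CPM in the mutants. Mutant 1 came within a few CPM of control 3, and the other mutants lay further below. The fitted difference was -0.36 ± 0.14 (SE) on the log2 scale, with an unadjusted p of 0.0314 and an adjusted p of 0.676 by edgeR's quasi-likelihood test. Rps25, a small-subunit protein needed for initiation at some internal ribosome entry sites, was at 245.5, 264.8 and 228.1 CPM in the controls against 204.9, 197.1 and 188.3 CPM in the mutants. Its groups were separated by more than the spread among the mutants, with a difference of -0.32 ± 0.13 (SE) and an adjusted p of 0.681 in edgeR.

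Rpl5 and Rpl11 form, with 5S ribosomal RNA, the particle that binds Mdm2 when ribosome assembly is disturbed. Rpl5 was at 270.3, 268.2 and 240.6 CPM in controls and 217.2, 209.3 and 209.0 CPM in the mutants, a difference of -0.29 ± 0.12 (SE) with an adjusted p of 0.718 in edgeR. The mutants lay close together, with an SD of 4.65 CPM (n = 3). Rpl11 was at 180.0, 189.9 and 165.3 CPM in controls and 160.1, 141.5 and 154.5 CPM in the mutants, a difference of -0.23 ± 0.13 (SE) with an adjusted p of 0.802. Both genes of this pair stayed apart between groups, by a narrower margin in Rpl11.

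Rps14, a small-subunit protein whose loss underlies the anaemia of the human 5q- syndrome, was at 391, 415 and 345 CPM in controls and 332, 298 and 310.1 CPM in the mutants, a difference of -0.29 ± 0.14 (SE) and an adjusted p of 0.756 in edgeR. The highest mutant was just below the lowest control. Rpl30, a large-subunit protein, was at 63.3, 59.1 and 55.6 CPM against 51.5, 48.3 and 48.5 CPM, a difference of -0.26 ± 0.11 (SE) and an adjusted p of 0.726. Its deposited counts miss most of its own-strand read pairs, as given further on, and on its own strand the difference was -0.29 ± 0.13 (SE) in edgeR. The groups stayed apart there too, with control 3, the lowest control, at 125.6 CPM and mutant 1, the highest mutant, at 121.7 CPM.

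Rps18, a protein of the head of the small subunit, went the other way. It was at 160.3, 191.0 and 144.9 CPM in controls and 216.1, 202.5 and 193.9 CPM in the mutants, and the difference was 0.30 ± 0.15 (SE) with an adjusted p of 0.775 in edgeR. Control 2 came within a few CPM of mutant 3.

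Other members of known role overlapped between the groups. Rps6, the substrate of S6 kinase, was at 127, 132 and 106 CPM in controls and 118, 113 and 101 CPM in the mutants. Rps19, the gene most often mutated in Diamond-Blackfan anaemia, was at 111, 128 and 83.9 CPM in controls and 102, 91.8 and 92.6 CPM in the mutants. In Rps6 control 3 fell among the mutants, and in Rps19 it lay below all of them. The fitted differences were -0.13 ± 0.14 (SE) for Rps6 and -0.17 ± 0.17 (SE) for Rps19.

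The acidic stalk of the large subunit recruits the elongation factors. Rplp1 was at 387, 428 and 379 CPM in controls and 426, 364 and 389.6 CPM in the mutants, with a difference of -0.02 ± 0.14 (SE). Rplp2, its partner in the stalk dimers, was at 212, 212 and 170.2 CPM in controls and 193, 167 and 171 CPM in the mutants, with a difference of -0.16 ± 0.15 (SE). Rpl12, at the base of the stalk, was at 171, 220.0 and 189.6 CPM against 173, 164 and 168 CPM, with a difference of -0.20 ± 0.14 (SE). The 3 overlap between the groups, and control 2 was at or near the top in each.

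Per length of coding sequence, the most abundant members were Rpl41, Rplp1 and Rps29, with means over all libraries of 1683, 1146 and 849 CPM per kb. Their coding lengths are 78, 345 and 171 bases, and read pairs in untranslated parts are counted with them, which raises a value per coding kb most in the shortest. The middle gene of the 81 was Rps27a, which makes a ubiquitin fusion, at 358 CPM per kb. Rpl41 was at 120.9, 157.9 and 123.8 CPM in controls and 135, 113 and 137 CPM in the mutants. Rps29, of the small subunit, was at 153, 164 and 140.9 CPM in controls and 153, 126 and 135 CPM in the mutants. Neither gene separated the groups, with differences of -0.06 ± 0.16 (SE) and -0.15 ± 0.14 (SE).

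At the other end were genes that every ribosome needs and that the deposited counts hold at very low levels. Rps10 had 76 read pairs over the 6 libraries, 0.165 to 0.425 CPM, and Rpl13a was at 2.16 to 3.66 CPM. Rpl24, with 38 read pairs in all, missed the minimum. Within the coding sequence of Rps10, 90.4% of 61-base stretches, the read length, also occur in transcripts of other genes of the GENCODE M21 annotation, and 97.5% of those of Rpl13a do. Rpl23a and Rps29, with every such stretch shared, were counted at 21.7 to 35.2 CPM and at 126 to 164 CPM. Counted on its own strand, as given further on, Rpl23a was at 131 to 171 CPM, close to Rps29. The low values of Rps10 and Rpl13a count assigned read pairs and cannot be read as mRNA abundance.

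Sharing of this kind was common in the family. Of the 77 protein-coding members, 26 had every 61-base stretch of their coding sequence in transcripts of other genes, 14 had under 50% of them shared, and 2, Rpl3l among them, had none. The median was 89.2%. The matrix counts only read pairs placed at a single site, and 5.83% to 9.78% of the read pairs of a library were in the row for several sites. The share was highest in control 1.

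The 3 members that varied by more than 4-fold between libraries are such copies or have one. Rps3a3, a processed copy of Rps3a1 on chromosome 13, was at 0.749, 44.0 and 40.6 CPM in controls and 0.449, 0.358 and 40.0 CPM in the mutants. Rps3a2, a copy on chromosome 14, followed it at 1.02, 8.88 and 8.03 CPM in the controls and 0.899, 0.965 and 7.33 CPM in the mutants. Both were high in controls 2 and 3 and in mutant 3, and low in the others, irrespective of the group. Rps3a1 itself, a small-subunit protein gene on chromosome 3, was lowest in the same libraries, at 213, 179.7 and 156 CPM against 276 to 293 CPM in control 1 and mutants 1 and 2.

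Rpl26, a large-subunit protein gene on chromosome 11, was at 25.4, 190.3 and 88.3 CPM in controls and 188, 176 and 96.9 CPM in the mutants. Its copy Gm15772 on chromosome 5, which the naming rule leaves out, held 4560, 38 and 1747 read pairs in the controls and 42, 15 and 2027 in the mutants. The libraries with many read pairs on the copy, controls 1 and 3 and mutant 3, are the ones with few on Rpl26. Rpsa, whose product is also known as the laminin receptor precursor, was at 514, 342 and 380.3 CPM in controls and 496, 448 and 523 CPM in the mutants. Its copy Rpsa-ps10 on chromosome 3 held 60, 5071 and 1804 read pairs in the controls and 54, 46 and 61 in the mutants, and so was high in controls 2 and 3, where Rpsa was lowest.

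The copies differ from the parents by few bases, as the 61-base windows below show for each pair, taken where the most differing bases fall, with those bases in capitals. They are GENCODE M21 transcript sequences, counted from the first base of the coding sequence for the parent and of the transcript for the copy.
Rps3a1, bases 200 to 260: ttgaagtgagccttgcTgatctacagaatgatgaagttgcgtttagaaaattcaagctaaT
Rps3a3, bases 200 to 260: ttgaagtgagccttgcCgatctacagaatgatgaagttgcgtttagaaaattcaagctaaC
Rpl26, bases 117 to 177: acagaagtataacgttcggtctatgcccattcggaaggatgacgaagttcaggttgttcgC
Gm15772, bases 117 to 177: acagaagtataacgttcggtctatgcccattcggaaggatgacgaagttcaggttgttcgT
Rpsa, bases 159 to 219: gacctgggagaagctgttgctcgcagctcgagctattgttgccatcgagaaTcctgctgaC
Rpsa-ps10, bases 159 to 219: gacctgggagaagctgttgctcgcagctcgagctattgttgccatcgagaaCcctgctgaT
Over the whole alignment Rps3a1 and Rps3a3 differ at 9 of 795 bases, Rpsa and Rpsa-ps10 at 6 of 885, and Rpl26 and Gm15772 at 2 of 438, C177T and T288C (the base of Rpl26 first, counted from its start codon). A read pair that lies within the aligned bases and covers none of these positions is the same for parent and copy. The untranslated parts of the parents were not aligned.

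For these 3 genes, picked after their values were seen, summing parent and copies narrowed the range between libraries. Over the 53 members with pseudogene copies that hold read pairs, the range narrowed in 21 and widened in 32, for example from 1.34-fold to 1.38-fold in Rps15a. With Rps3a2, Rps3a3 and Gm13408 added, Rps3a1 came to 295, 267 and 229 CPM in the controls and 291, 277 and 204 CPM in the mutants, and its range between libraries shrank from 1.88-fold to 1.45-fold. Rpl26 with Gm15772 came to 139, 191 and 133 CPM in the controls and 189, 176 and 148 CPM in the mutants, shrinking from 7.49-fold to 1.44-fold. Rpsa with its 3 copies came to 516, 469 and 432 CPM in the controls and 498, 449 and 525 CPM in the mutants, shrinking from 1.53-fold to 1.22-fold. The log2 ratio of the group means of these sums was -0.03 for Rps3a1, 0.15 for Rpl26 and 0.06 for Rpsa, while the fitted differences of the single genes had been 0.07, 0.60 and 0.25. The groups overlap in each sum. How read pairs were divided between parent and copy, and whether the animals differ in these copies, was not tested.

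**Figure D3:**
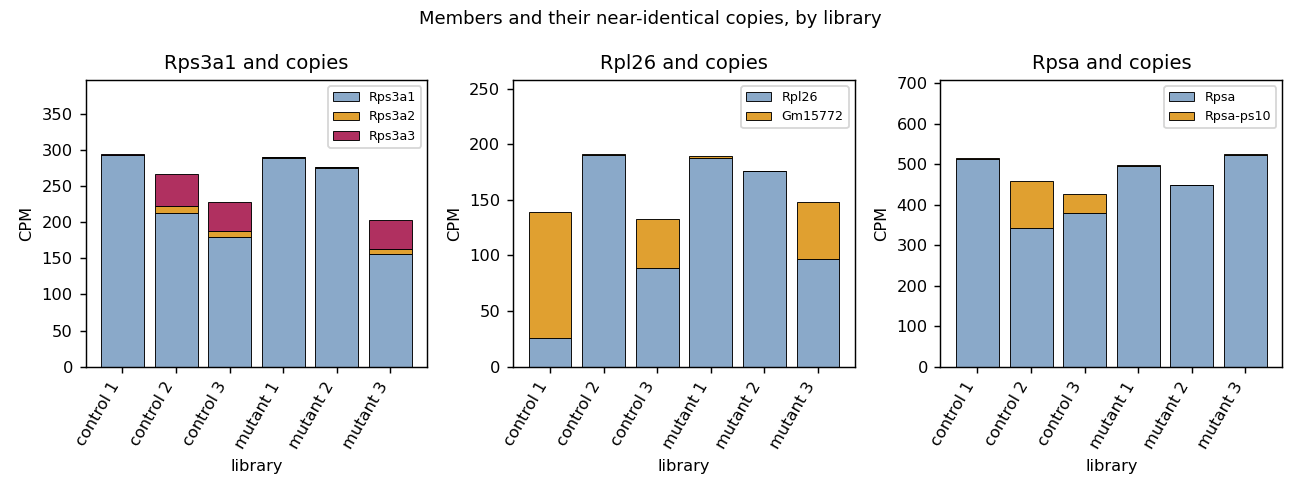
CPM (y axis) of Rps3a1, Rpl26 and Rpsa and of their near-identical copies, stacked, in each of the 6 libraries (x axis). The copies are high in controls 2 and 3 and mutant 3 for Rps3a1, in controls 1 and 3 and mutant 3 for Rpl26, and in controls 2 and 3 for Rpsa, and the stacked totals vary less than the parents alone.

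The annotated pseudogene Rps4l, a processed copy of Rps4x, was at 3.10, 1.34 and 1.68 CPM in the controls and 3.44, 2.56 and 2.77 CPM in the mutants. Control 1 lay among the mutants, and the difference of 0.52 ± 0.35 (SE) had an adjusted p of 0.837 in edgeR. Rpl6l, a copy of Rpl6, was at 0.413 to 1.32 CPM over the libraries.

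Paralogs that replace a ribosomal protein in some tissues were compared with their parents. Rpl3l, the striated muscle form of the peptidyl transferase centre protein Rpl3, was at 588, 506 and 543 CPM in controls and 540.3, 470.4 and 572 CPM in the mutants, a difference of -0.05 ± 0.15 (SE). Rpl3 was at 56.6, 125 and 44.6 CPM in controls and 64.5, 53.8 and 68.7 CPM in the mutants, and control 2 stood far above the other libraries. Per coding length, Rpl3l over Rpl3 was 10.3, 4.0 and 12.1 in the controls and 8.29, 8.66 and 8.24 in the mutants, so the muscle form had more assigned read pairs in every library, by the smallest factor in control 2. Of the 61-base stretches of Rpl3, 94.7% are shared with other genes, against 0 of those of Rpl3l, so these ratios cannot be read as ratios of mRNA abundance. Without control 2 the fitted difference of Rpl3 turned from -0.28 ± 0.38 (SE) to 0.30. Control 2 also had the highest level of Eef1a1, the elongation factor gene that adult muscle replaces by Eef1a2: 1554 CPM against 359 to 563 CPM elsewhere, a gene chosen after its values were seen. The part of the regeneration markers, highest in the same library, was not tested.

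Rpl22l1, a paralog of Rpl22 that is raised when Rpl22 is lost, was at 37.4, 16.2 and 32.8 CPM in controls and 20.1, 14.2 and 22.9 CPM in the mutants. It had the lowest fitted value among protein-coding members, -0.59 ± 0.33 (SE), with an adjusted p of 0.805 in edgeR, and control 2 lay among the mutants. Rpl22, an RNA-binding protein of the large subunit, was at 138, 142 and 116 CPM in controls and 128, 125 and 111 CPM in the mutants. The ratio of Rpl22l1 to Rpl22 per coding length was 0.285, 0.119 and 0.297 in the controls and 0.164, 0.119 and 0.216 in the mutants.

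Rps27, a zinc finger protein of the small subunit, was at 209.8, 187 and 162 CPM in controls and 168, 143 and 127 CPM in the mutants, a difference of -0.35 ± 0.16 (SE) with an adjusted p of 0.749 in edgeR. Mutant 1 lay above control 3. Its paralog Rps27l, known as a p53 target, was at 68.0, 79.4 and 63.9 CPM against 61.5, 59.8 and 54.1 CPM, a difference of -0.27 ± 0.13 (SE) with an adjusted p of 0.777. The ratio of Rps27l to Rps27 per coding length overlapped between the groups, at 0.38 ± 0.0513 (SD, n = 3) in controls and 0.403 ± 0.0315 (SD, n = 3) in mutants. Of the 61-base stretches, 100% are shared in Rps27 and 40.5% in Rps27l, so this ratio is not one of mRNA abundance. Rpl7l1, a relative of Rpl7, was at 43.9 to 47.3 CPM in the controls and 42.5 to 44.9 CPM in the mutants, and Rpl7 itself was at 285 to 393 CPM and 292 to 308.5 CPM.

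Rpl39 and Rpl10, which have germline paralogs, were present in every library. Rpl39, which lines the exit tunnel, was at 69.9, 92.9 and 74.2 CPM in controls and 70.6, 59.4 and 70.2 CPM in the mutants, a difference of -0.24 ± 0.15 (SE). Its testis form Rpl39l had 1 to 3 read pairs in each control and 3 to 5 in each mutant, too few for a fold. Rpl10, at the subunit interface, was at 256, 228 and 224 CPM against 227, 236 and 217 CPM, a difference of -0.06 ± 0.13 (SE). Rpl10l had 0 read pairs in all libraries, which allows up to 0.068 to 0.0827 CPM per library at 3 counts, for counting error only.

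**Figure D4:**
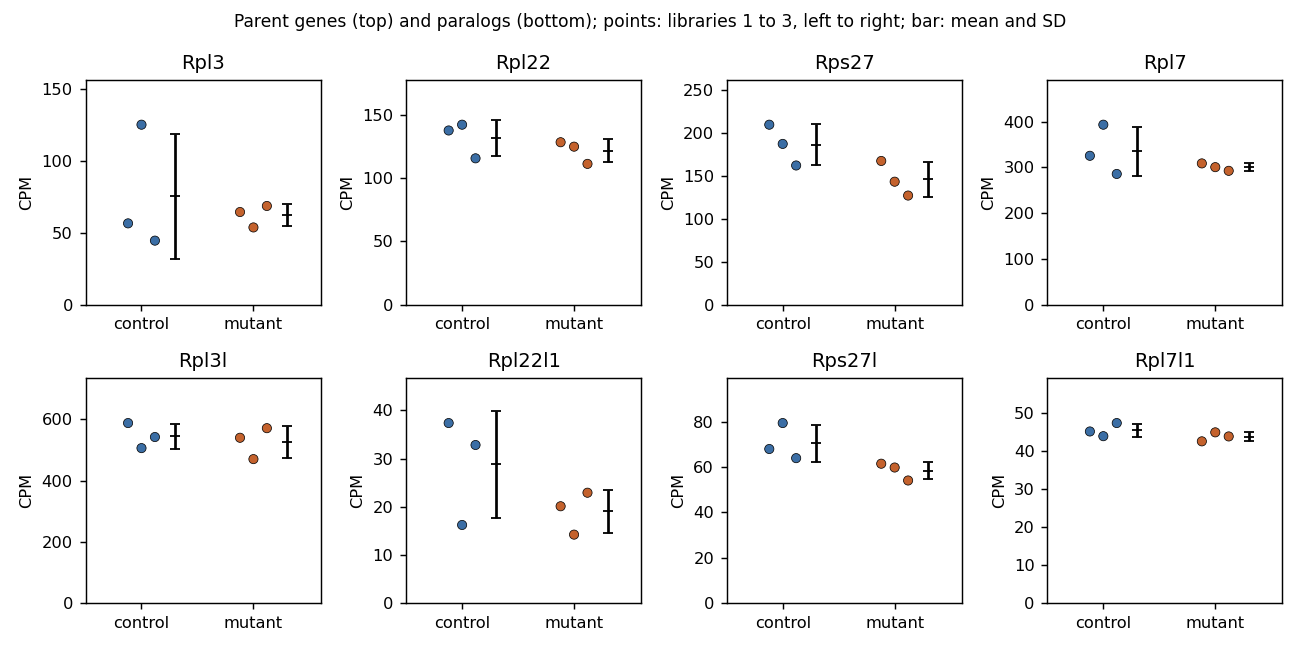
CPM (y axis, from 0) of 4 parent genes (top) and their paralogs (bottom) in the 3 control and 3 mutant libraries, with mean and SD beside the points. Rpl3 is highest in control 2, at 125 CPM, and Rpl22l1 is low there, at 16.2 CPM, while Rpl7l1 varies little.

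The deposited comparison used counts without regard to strand although the libraries keep it. For 75 of the 81 genes the own-strand count was within 5% of the unstranded count, and the share of read pairs on the opposite strand had a median of 0.167%. In 4 genes of the large subunit the own-strand count was more than 1.5 times the unstranded count: Rpl23a by 5.51-fold, Rpl35 by 2.64-fold, Rpl30 by 2.47-fold and Rpl22l1 by 2.15-fold. Read pairs that overlap several genes go to a separate row of the unstranded counts, which held 6.93% to 7.49% of a library. Rpl23a, a large-subunit protein near the exit of the tunnel, was at 33.2, 35.2 and 27.0 CPM in the controls and 31.3, 21.7 and 27.3 CPM in the mutants without strand, and at 171, 163 and 144 CPM and 156, 131 and 147 CPM on its own strand. The order of the libraries was kept only in part, and the groups overlapped either way. Rps10 had the largest share on the opposite strand, 40.9% of few read pairs.

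On the own-strand counts, the fitted differences of the 4 genes were -0.13 ± 0.14 (SE) for Rpl23a, -0.19 ± 0.17 (SE) for Rpl35, -0.29 ± 0.13 (SE) for Rpl30 and -0.62 ± 0.33 (SE) for Rpl22l1 by edgeR's quasi-likelihood test, with adjusted p-values of 0.733 or more. All 4 had the same sign without strand. Rpl22l1 over Rpl22 per coding length came to 0.612, 0.246 and 0.666 in the controls and 0.343, 0.274 and 0.444 in the mutants on the own strand, so that the level of the paralog, but not the overlap of the groups, depends on the counting.

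**Figure D5:**
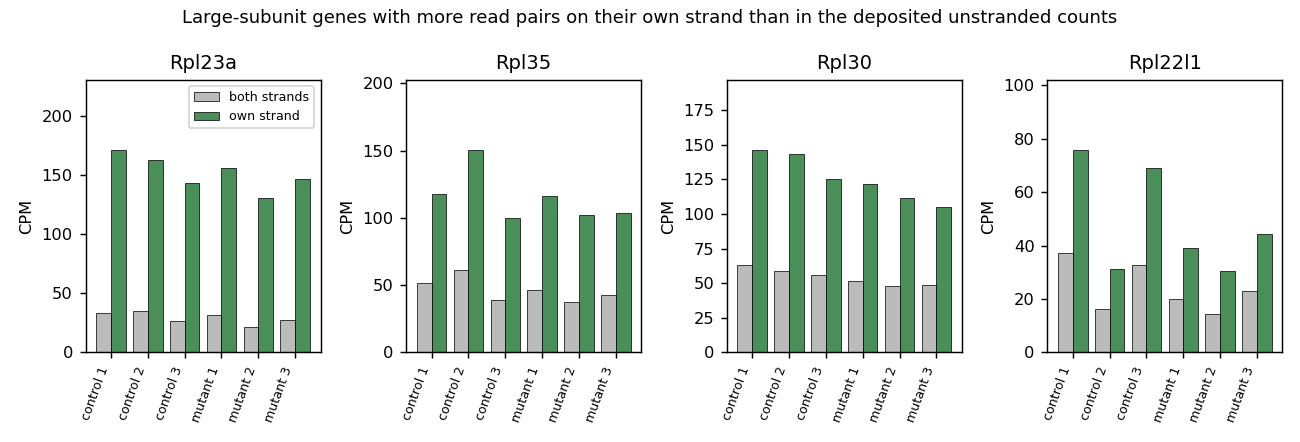
CPM (y axis, from 0) of the 4 large-subunit genes whose own-strand count exceeds the unstranded count by more than 1.5-fold, in each library, with the unstranded value in grey and the own-strand value in green. The own-strand bar is higher in every library, most of all in Rpl23a, 5.51-fold over all libraries.

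Genes that serve the ribosome around these proteins gave no call either. The list of elongation factors and other mRNAs with a 5′ terminal oligopyrimidine tract had 22 genes tested, of which edgeR and DESeq2 called 0; 14 lay below 0, the median was -0.06, and 2 had an unadjusted p below 0.05 in edgeR. Gas5, a noncoding host of small nucleolar RNAs with an oligopyrimidine start, was at 13.2, 21.1 and 15.7 CPM against 30.5, 25.5 and 23.2 CPM, a difference of 0.66 ± 0.20 (SE) with an adjusted p of 0.572. The groups do not overlap in this gene, which lay higher in the mutants, the direction opposite to most ribosomal protein genes.

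Among factors of ribosome assembly, 0 of 23 tested large-subunit factors and 0 of 17 tested small-subunit factors were called by edgeR or by DESeq2, with 17 and 12 below 0 and medians of -0.07 and -0.09. At an unadjusted p below 0.05 stood 1 and 0 of them in edgeR. Rrs1, which loads the 5S particle into the large subunit precursor, was at 21.4, 16.9 and 14.9 CPM in controls and 25.6, 25.1 and 20.7 CPM in the mutants, a difference of 0.42 ± 0.17 (SE) with an adjusted p of 0.701. Rrp12, a small-subunit export factor, was at 59.2, 68.9 and 54.4 CPM against 45.8, 53.1 and 51.6 CPM, a difference of -0.28 ± 0.14 (SE) with an adjusted p of 0.777. RNA polymerase I and ribosomal RNA processing had 29 genes, 0 called by either tool, 0 at an unadjusted p below 0.05 in edgeR and 13 below 0, with a median of 0.01. Polr1a, the largest subunit of the polymerase, was at 44.4, 47.9 and 39.3 CPM in controls and 49.5, 50.9 and 56.3 CPM in the mutants, a difference of 0.25 ± 0.13 (SE) with an adjusted p of 0.779.

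The list of mTOR, Myc and regulators of oligopyrimidine mRNAs had 25 genes, 0 called by either tool and 1 at an unadjusted p below 0.05 in edgeR, with 13 below 0 and a median of -0.01. Sesn1, a stress-induced inhibitor of mTOR complex 1, was at 20.2, 31.9 and 13.4 CPM in controls and 47.1, 42.6 and 40.8 CPM in the mutants. Every mutant exceeded every control, with a difference of 0.99 ± 0.29 (SE) and an adjusted p of 0.557 in edgeR. Mtor was at 54.3, 73.0 and 49.5 CPM in controls and 41.5, 45.2 and 47.8 CPM in the mutants, a difference of -0.39 ± 0.17 (SE) with an adjusted p of 0.726. Mycn, a Myc family factor, stayed below 1.2 CPM in every library.

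Markers of other cells in the muscle were tallied beside the ribosomal protein genes. The 15 macrophage markers summed to 162 to 218 CPM in the controls and 175 to 306 CPM in the mutants, and the 9 adipocyte markers to 171.8 to 330.1 CPM and 262 to 452 CPM. The 8 neutrophil markers summed to 11.01 to 30.8 CPM and 3.89 to 11.3 CPM, the 12 lymphocyte markers to 2.90 to 4.88 CPM and 2.47 to 5.52 CPM, and the 7 red blood cell markers to 772 to 2068 CPM and 1367 to 2028 CPM. The 11 endothelial markers summed to 375 to 437 CPM and 399 to 547 CPM, and the 11 of fibroblasts and their progenitors to 1904 to 6587 CPM and 1861 to 7969 CPM. The sums overlap between the groups in every list, and no marker was at 0 in all libraries. Some lists nevertheless leaned one way. All 7 tested neutrophil markers lay lower in the mutants, with a median log2 fold change of -1.62. In 5 of them every mutant was below every control, against 6.09% of all genes tested. The neutrophil sums overlap only through control 3, at 11.01 CPM, and mutant 1, at 11.34 CPM. All 9 adipocyte markers lay higher in the mutants, with a median of 0.86, and all 7 red blood cell markers, with a median of 0.55. Of 11 markers of satellite cells and regenerating fibres, 10 lay lower in the mutants, with a median of -0.81. Their sum was 271 CPM in control 2. In controls 1 and 3 it was 79.8 and 72.1 CPM, within the 68.8 to 111 CPM of the mutants. Of 11 endothelial markers, 10 lay higher, with a median of 0.26. Of 15 macrophage markers, 11 lay higher, with a median of 0.33, and 0 had an unadjusted p below 0.05 in edgeR. edgeR called 0 genes of these lists. At an unadjusted p below 0.05 in edgeR stood 5 neutrophil, 2 adipocyte, 1 red blood cell, 1 endothelial and 0 satellite cell markers, against 6.94% of all genes. DESeq2 called 1 adipocyte marker, 1 red blood cell marker and 0 of the neutrophil, endothelial and satellite cell markers, against 1.18% of all genes. Their part in the levels of the ribosomal protein genes was not tested.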

How the data were processed

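Poly(A)-selected directional libraries were made from RNA inputs of 800 ng whose integrity number was 7.0 or higher, and were read as pairs of 61 bases, per the labels' protocols. The authors deposited raw counts of read pairs per gene, which equal the unstranded columns of the per-sample count files in all 6 libraries. The submitters' processing notes name STAR 2.7.11b, FastQC 0.12.1, MultiQC 1.28, R 4.5.2, DESeq2 1.50.2 and GRCm39, while the annotation release was not given in the sources used here. A comparison table deposited by the authors holds a mean normalised signal, log2 fold changes, a Wald score and p-values. Rows that name no gene (unmapped, several sites, no feature, ambiguous) held 18.5% to 22.3% of read pairs per library and were left out.

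Counts were analysed here with edgeR 4.0.16 (limma 3.58.1, R 4.3.3): filterByExpr with a minimum count of 10, TMM scaling, a robust quasi-likelihood test between the groups without covariates, and adjustment by Benjamini-Hochberg over 15589 genes at 0.05. CPM use the TMM factors, those of own-strand counts included. DESeq2 1.42.0 was an alternative. The test was checked on simulated data, with the changed genes drawn at random from all genes tested. It recovered 15 of 71 genes changed 2-fold, 55 of 73 changed 4-fold and 50 of 56 changed 8-fold. It made 11 false calls there. Named genes were the paralogs with their parents, the 6 smallest p-values, the 4 highest and 4 lowest fold changes at 1 CPM or more, members of known special role, the 3 most abundant per coding length, and up to 3 genes of each pathway list; some genes are not reported here. The members and lists were chosen with earlier results of these data known. The limit given for a count of 0 covers counting error only.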

Additional observations from a re-analysis of the deposited data

How the results depend on the processing

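The count of ribosomal protein genes called was 0 in each of the 18 other settings in which it was fitted. The median of the 81 fold changes stayed below 0 in all 19 other settings, from -0.08 without control 2 to -0.23 without control 3, and was -0.12 with upper-quartile scaling and -0.17 with sex as a covariate. The log2 ratio of their summed share ranged from -0.16 to -0.0047 with single animals left out. The count over all genes, 31, did depend on the setting: DESeq2 called 184 genes, or 190 on own-strand counts (chosen after seeing the data), and fitting without a filter on low counts called 79. Leaving out single animals gave 6 to 49 genes called. All controls were male, so sex is partly confounded with group. With sex as a covariate, the group difference therefore rests on mutant 3 against the controls, as it does among males alone. Same-numbered animals of the groups share only a number: their deviations correlated by 0.173, -0.0607 and 0.178, and with the replicate number as a block edgeR called 11 genes.

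Of 504 single-gene values, 18 had the opposite sign, all for genes with no call. Sex as a covariate and males alone both set mutant 3 against the controls, so their values are not separate results. In these settings Rpl3l came to 0.067 and 0.069, Rps3a3 to 0.49 and 0.49 and Rps3a2 to 0.29 and 0.30. Rpl26 came to -0.065 and -0.060, and Rpl41 to 0.026 and 0.029. Rplp1 was 0.014 with upper-quartile scaling. With single animals left out, Rpl3 ranged from -0.56 to 0.30, Rpl3l from -0.11 to 0.026, Rplp1 from -0.078 to 0.037 and Rpl41 from -0.14 to 0.068. The cause was not tested. Depth is least for Rps10 and Rpl6l, with 76 and 216 read pairs over all libraries.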
